A study of Mus musculus with 40 samples.

Results

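The genes described here are the neighbours of Trp53 on mouse chromosome 11: protein-coding genes whose annotated start, taken as the lower coordinate, lies within about 1 Mb to either side of Trp53 on the GRCm38 genome. Trp53 spans chr11:69580359-69591873 on the plus strand. Around it, 100 protein-coding genes were counted. Trp53 itself, Cd68, Aurkb and Cxcl16 were set aside, and 16 others did not reach 1 TPM (a unit of transcript abundance that corrects for gene length and sums to the same total in every library) in at least 4 of the 40 tumours. The other 80, out of 43346 genes in each table and 16650 that passed the same filter on low values, are called neighbours from here on, and reach from Myh10 (start 68691559) to Mink1 (start 70562881). Of these, 24 start at lower coordinates than Trp53 and 56 at higher coordinates. The rule used position and level over all tumours, apart from the genes set aside by name, and was set with earlier results of these data known. The least abundant to be kept were Tm4sf5, which reached 1 TPM in 4 tumours, Asgr1 in 8 and Asgr2 in 10.

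RNA-seq was made from whole mammary tumours of MMTV-Wnt1 mice, in which a mouse mammary tumour virus promoter drives the Wnt1 oncogene in the mammary epithelium. All groups carry that transgene. The groups compared were p53-null mice given doxorubicin (6 tumours from 5 mice), p53-null untreated mice (6 from 4), p21-null mice given doxorubicin (10 from 9), p21-null untreated mice (6 from 5), and, for the response to treatment, mice wild-type for both genes given doxorubicin (6 from 5) or untreated (6 from 6). Doxorubicin, a DNA-damaging drug, was given by intraperitoneal injection at 4 mg/kg on each of 5 days, with the tumour harvested 24 h later. The labels give neither the mice's age nor the part of Trp53 or of Cdkn1a, the p21 gene, that each null allele lacks. Title numbers were read as mouse numbers, and a suffix such as i or rc as a second tumour of that mouse. The labels do not state this in words. Tumours whose titles share a number were averaged to 1 value per mouse, so on that reading the p-values measure the spread between mice. Values of a group are given in the order of the mouse numbers, and a single mouse is called by the title of its first tumour.

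p53 is a transcription factor that is stabilised after DNA damage and switches on genes for cell cycle arrest and cell death. p21, made from Cdkn1a, is its main effector of arrest, so p21-null cells keep p53 and its other targets. A knockout allele is also a change in the DNA around it: a mouse bred from targeted stem cells can keep flanking DNA of the stem cell strain, and inserted sequence can alter nearby genes. The comparison of p53-null with p21-null tumours, in which the Trp53 locus was not targeted, therefore asks whether the genes around Trp53 differ along with it. The neighbourhood is dense and mixed, with genes for transcription and translation (Polr2a, Eif4a1, Eif5a, Rpl26), for vesicle traffic and autophagy (Gabarap, Trappc1), for the proteasome (Psmb6) and for synapses and cell contact (Nlgn2, Dlg4, Efnb3).

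The closest neighbour is Wrap53, whose protein delivers telomerase RNA to Cajal bodies and whose gene runs away from Trp53 on the opposite strand. The bases between the annotated ends of the pair are shown because they are the shared start region of both genes, read on the strand of Wrap53 (minus, GRCm38.p6 chr11:69580256-69580358). Capitals mark the only match to the p53 decamer, the unit that a complete p53 response element holds as a pair. The other sequences are the 250 bases before the starts of Med11 (plus, chr11:70451668-70451917), Ctc1 (plus, chr11:69015661-69015910) and Nlgn2 (minus, chr11:69837785-69838034), neighbours that differed between the genotypes under doxorubicin, and they hold no such decamer on either strand.
Wrap53 and Trp53, between: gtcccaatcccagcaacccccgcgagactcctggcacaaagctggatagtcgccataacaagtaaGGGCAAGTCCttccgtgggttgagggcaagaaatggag
Med11: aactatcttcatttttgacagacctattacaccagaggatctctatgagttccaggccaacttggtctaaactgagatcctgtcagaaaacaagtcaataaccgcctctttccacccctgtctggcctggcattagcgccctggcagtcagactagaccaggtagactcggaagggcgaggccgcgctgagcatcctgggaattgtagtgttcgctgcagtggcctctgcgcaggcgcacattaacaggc
Ctc1: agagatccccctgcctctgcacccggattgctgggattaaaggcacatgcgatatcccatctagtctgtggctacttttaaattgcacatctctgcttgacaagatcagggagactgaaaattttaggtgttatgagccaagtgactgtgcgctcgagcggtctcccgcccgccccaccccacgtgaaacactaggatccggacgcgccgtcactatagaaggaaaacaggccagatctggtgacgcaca
Nlgn2: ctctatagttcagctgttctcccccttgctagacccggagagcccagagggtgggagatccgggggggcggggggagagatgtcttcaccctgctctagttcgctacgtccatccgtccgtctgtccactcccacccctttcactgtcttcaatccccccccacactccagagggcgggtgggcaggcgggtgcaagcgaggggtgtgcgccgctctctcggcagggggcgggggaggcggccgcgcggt

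Of the 80 neighbours, 53 had a promoter window in the RefSeq table (GRCm38.p6), taken from 250 bases before to 50 after each start. A complete p53 response element, 2 decamers with 0 to 13 bases between them, was found for 0 of 53, against 0.0740% of 27025 genes in the table. A single decamer on either strand was found for 6 (11.3%), against 9.55% of all genes in the table. These were Rangrf, Tmem107, Wrap53, Tnfsfm13, Asgr2 and Alox12. The richest window of a neighbour had a median of 60.7% G and C and 20 CpG dinucleotides, against 53.3% and 8 over the table. Such a match is a description of letters and says nothing of p53 binding.

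The genotype labels were checked on Trp53 and on p53 target genes. Trp53 (ENSMUSG00000059552) was detected in every p53-null mouse, at 63.1, 52.1, 68.2 and 60.9 TPM in the untreated p53-null mice, against 108, 102, 102, 109 and 80.1 TPM in the untreated p21-null mice. Under doxorubicin it stood at 40.4, 39.4, 64.5, 70.1 and 44.2 TPM in the treated p53-null mice, against 57.7 to 97.5 TPM (median 85.6) in the 9 p21-null mice. The 2 genotypes did not overlap without treatment and overlapped under doxorubicin. The log2 difference was −0.70 ± 0.17 (SE) untreated (limma, Benjamini-Hochberg adjusted p = 0.0353) and −0.73 ± 0.14 under doxorubicin (limma, adjusted p = 0.00141). The untreated call was lost without any 1 of the 4 p53-null mice and without p21null_Untreated_4116, p21null_Untreated_4383, p21null_Untreated_4536 or p21null_Untreated_4539 (limma, adjusted p between 0.0508 and 0.101). Of 12 p53 target genes, 11 were lower and 0 higher in p53-null than in p21-null tumours under doxorubicin, with a median log2 difference of −2.06, and 3 were lower and 0 higher without treatment. Cdkn1a itself had 12.1 to 86.7 TPM in doxorubicin-treated p53-null mice and 187 to 279.8 TPM in p21-null mice, so a Cdkn1a signal was present in the p21-null libraries and gene-level TPM does not check that label.

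Some libraries stood apart. In wild-type tumours, made with a stranded total RNA kit where the null tumours had an unstranded kit, nuclear protein-coding genes held 7.72% to 10.7% of all TPM, against 79.6% to 86.3% in null tumours. Kit and genotype cannot be told apart there, so wild-type tumours entered no genotype comparison. Among null tumours, mitochondrial transcripts held 4.01% to 6.32% of TPM in doxorubicin-treated p53-null tumours and 2.30% to 3.79% in doxorubicin-treated p21-null tumours, with no overlap. Along chromosome 11 outside the neighbours, 2 of 6 untreated and 3 of 6 doxorubicin-treated p53-null tumours had a segment whose median gene, after the median of the tumour's own protein-coding genes was subtracted, lay more than 0.3 (log2) from the p21-null mean of the same treatment, against 0 of 6 and 0 of 10 p21-null tumours. Those tumours were p53null_Untreated_881, p53null_Untreated_1556, p53null_Doxo_2551, p53null_Doxo_2551rc and p53null_Doxo_2769. The counts of neighbours are also given without the mice p53null_Untreated_881, p53null_Doxo_2551 and p53null_Doxo_2769, while p53null_Untreated_1556 was kept there.

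Without treatment, none of the 80 neighbours passed the test between p53-null and p21-null tumours, while Trp53 itself did. The count was 0 of 80 at an adjusted p under 0.05 (limma, Benjamini-Hochberg over 16650 genes), where 1.2% of all genes tested were called, 0.649% higher and 0.553% lower. At an unadjusted p under 0.05 there were 11 neighbours, 13.8%, against 13.9% of all genes, a share near the background. The median log2 difference of the neighbours was −0.01, against 0.00 over all genes tested, and 40 of 80 lay below 0. The neighbours ranged from −0.84 for Ybx2, a germ-cell RNA-binding protein, to 0.69 for Alox12, a lipoxygenase. In these bulk tumours, fewer cells of a type and less RNA per cell cannot be told apart.

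How closely this bounds the neighbours depends on the gene. For 66 of 80 the 95% interval of the untreated log2 difference lay within 1 of 0, and for 25 it lay within 0.5 of 0. The median standard error was 0.21. A gene that misses the threshold is therefore not shown to be equal in both genotypes.

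**Figure D1:**
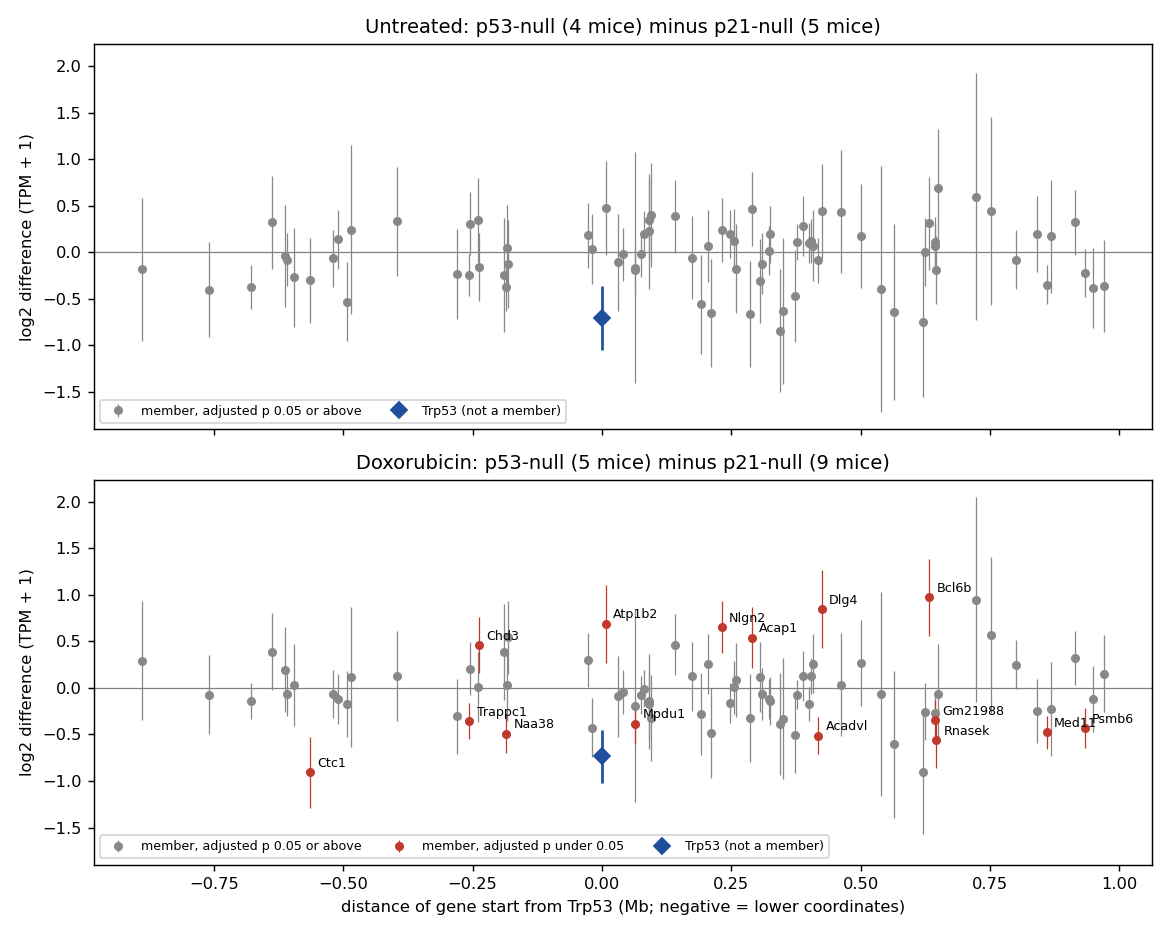
Log2 difference of each neighbour, p53-null minus p21-null, with its 95% interval (vertical axis) against the distance of its start from Trp53 in Mb (horizontal axis), without treatment (top) and under doxorubicin (bottom), with Trp53 as a diamond. Without treatment 0 of 80 neighbours are called, under doxorubicin 15 of 80, and the called genes are spread over the whole distance.

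The nearest neighbours were examined one by one. Wrap53 (ENSMUSG00000041346, chr11:69561758-69580255, minus strand), whose 5′ end lies next to that of Trp53, had 16.64, 12.99, 14.41 and 13.95 TPM in untreated p53-null mice, against 15.91, 16.01, 14.71, 11.97 and 12.21 TPM in untreated p21-null mice. p53null_Untreated_881 lay above every p21-null mouse and the other three within their range, with a log2 difference of 0.04 ± 0.18 (limma, adjusted p = 0.963). Under doxorubicin it had 11.32, 7.48, 12.8, 11.6 and 12.9 TPM in p53-null mice, against 11.34 to 22.0 TPM (median 15.96) in p21-null mice. p53null_Doxo_2551 and, barely, p53null_Doxo_2237 lay below every p21-null mouse, and the other three in the lower part of the p21-null range. That difference, −0.43 ± 0.15, missed the threshold (limma, adjusted p = 0.0596). It passed without p21null_Doxo_4183, p21null_Doxo_4380, p21null_Doxo_4439 or p21null_Doxo_4533 (limma, adjusted p between 0.0316 and 0.0467), and in 7 of 36 alternative settings in all.

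Atp1b2 (chr11:69599736-69605942), a beta subunit of the sodium pump and the closest gene at higher coordinates, starts 7863 bp beyond Trp53. It had 3.29, 1.31, 3.01 and 2.79 TPM in untreated p53-null mice, against 1.497, 1.51, 1.38, 2.79 and 0.820 TPM in untreated p21-null mice. Under doxorubicin it had 2.45, 1.45, 1.73, 2.62 and 1.70 TPM in p53-null mice, against 0.390 to 2.05 TPM (median 0.570) in p21-null mice. In p53-null mice under doxorubicin it was high against most p21-null mice, with some overlap, and at these low levels the log2(TPM + 1) scale understates the fold. The log2 difference was 0.47 ± 0.24 without treatment, which did not pass the test (limma, adjusted p = 0.40), and 0.69 ± 0.20 under doxorubicin, which did (limma, adjusted p = 0.0289). The call was lost without p53null_Doxo_2237 or p53null_Doxo_2769, without p21null_Doxo_4132, p21null_Doxo_4534 or p21null_Doxo_4577 (limma, adjusted p between 0.0508 and 0.075), and without the second tumour of p53null_Doxo_2551 (0.0647).

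On the lower-coordinate side, Efnb3, a transmembrane ephrin ligand 26267 bp away, had 1.32, 0.812, 2.84, 0.980 and 0.970 TPM in doxorubicin-treated p53-null mice, against 0.550 to 1.02 TPM (median 0.930) in p21-null mice. p53null_Doxo_2688 was the highest and the groups overlapped, with log2 differences of 0.18 ± 0.17 untreated and 0.30 ± 0.14 under doxorubicin that did not pass (limma, adjusted p = 0.689 and 0.148). Kdm6b, a histone H3 lysine demethylase, had 10.8, 8.93, 19.1, 15.6 and 9.95 TPM in doxorubicin-treated p53-null mice, against 5.94 to 12.3 TPM (median 8.02) in p21-null mice. p53null_Doxo_2688 and p53null_Doxo_2769 lay above every p21-null mouse and the other three within their range. The difference was −0.13 ± 0.23 untreated (limma, adjusted p = 0.864) and 0.54 ± 0.19 under doxorubicin (limma, adjusted p = 0.057). It passed without p53null_Untreated_881 or p53null_Doxo_2551, or p21null_Untreated_4555 or p21null_Doxo_4380 (limma, adjusted p between 0.0259 and 0.0489). Tmem88, a membrane protein of Wnt signalling, differed by 0.05 ± 0.22 and 0.03 ± 0.18 and did not pass.

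On the higher-coordinate side, Sat2, an acetyltransferase 30151 bp away, had log2 differences of −0.11 ± 0.25 untreated and −0.09 ± 0.21 under doxorubicin. Fxr2, an RNA-binding relative of the fragile X protein 41117 bp away, had differences of −0.02 ± 0.14 and −0.04 ± 0.11. Neither passed, and for Fxr2 the 95% intervals ran from −0.30 to 0.26 untreated and from −0.28 to 0.19 under doxorubicin. Sox15, a transcription factor 63441 bp away, varied widely between mice, with 42.7, 8.90, 2.99 and 3.75 TPM in untreated p53-null mice against 7.55, 7.46, 14.03, 11.8 and 8.84 TPM in untreated p21-null mice. p53null_Untreated_881 was far above the rest and p53null_Untreated_2119 and p53null_Untreated_2493 below every p21-null mouse, so its differences of −0.16 ± 0.60 untreated and −0.19 ± 0.50 under doxorubicin are the least certain of those named here.

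Under doxorubicin, 15 of the 80 neighbours passed the test between p53-null and p21-null tumours (18.8%), where 14.5% of all genes tested were called. In p53-null tumours 9 were lower (11.2%, against 5.9% of all genes) and 6 higher (7.5%, against 8.56%). With median-of-ratios scaling the split was 12 lower and 4 higher, where 8.85% of all genes were called lower and 7.46% higher. The median log2 difference over all genes then moved to 0.01, against 0.10 on the TPM scale. That of the neighbours moved along with it, to −0.17, against −0.07 on the TPM scale, and 52 of 80 lay below 0. At an unadjusted p under 0.05 the share of neighbours was 30%, against 31.5% of all genes. The count without p53null_Untreated_881, p53null_Doxo_2551 and p53null_Doxo_2769 was 8 of 80, 3 higher and 5 lower, where 8.94% of all genes were called. With only the 2 doxorubicin groups fitted the count was 13 of 80 (16.25%, against 7.87% of all genes), and with no filter on low values 14 of 80 (17.5%, against 5.99% of a set that then takes in genes at very low levels). How far the neighbours' share stood above that of all genes thus varied with the fit, and no test of the gap was made. The median neighbour lay at −0.07, against 0.10 for all genes, and 46 of 80 (57.5%) lay below 0, against 37.8% of all genes. Without those 3 mice the medians were 0.01 and 0.14, and 39 of 80 neighbours lay below 0.

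Of 20 genes for transcription, RNA and translation, 4 were lower and 1 higher, with a median log2 difference of −0.10. Med11 (ENSMUSG00000018923), a subunit of the Mediator complex that links transcription factors to RNA polymerase II, had 40.9, 34.1, 33.8, 31.2 and 38.75 TPM in doxorubicin-treated p53-null mice, against 44.4 to 55.2 TPM (median 49.9) in p21-null mice. Every p53-null mouse lay below every p21-null mouse. Med11 differed by −0.48 ± 0.09 (log2), a fold of 0.719 (limma, adjusted p = 0.000896). Without treatment Med11 had 32.6, 41.8, 40.4 and 39.0 TPM in p53-null mice, against 41.7, 50.4, 49.6, 45.2 and 59.4 TPM in p21-null mice, and only p53null_Untreated_1556 reached into the p21-null range. That difference, −0.35 ± 0.10, did not pass (limma, adjusted p = 0.105), although it had the smallest adjusted p of the neighbours without treatment.

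Ctc1 (ENSMUSG00000020898), of the CST complex that maintains telomere ends, showed the most negative difference among the neighbours. It had 37.2, 24.0, 48.8, 34.3 and 45.8 TPM in doxorubicin-treated p53-null mice, against 43.6 to 92.8 TPM (median 76.7) in p21-null mice. The groups met only at the bottom of the p21-null range, and the log2 difference was −0.91 ± 0.18, a fold of 0.533 (limma, adjusted p = 0.0026). Naa38, an auxiliary subunit of an N-terminal acetyltransferase, had 138, 107, 115, 142 and 112 TPM in doxorubicin-treated p53-null mice, against 139.9 to 191 TPM (median 176) in p21-null mice. Of the p53-null mice only p53null_Doxo_2769 reached into the p21-null range, with a log2 difference of −0.49 ± 0.10 (limma, adjusted p = 0.00364). Naa38 shares 145 bp with Cyb5d1 and 162 bp with Tmem88 on the opposite strand, and an unstranded kit does not separate such reads.

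Rnasek, ribonuclease kappa, had 117, 141, 121, 109 and 167 TPM in doxorubicin-treated p53-null mice, against 139 to 283 TPM (median 192) in p21-null mice. p53null_Doxo_2237, p53null_Doxo_2688 and p53null_Doxo_2769 lay below every p21-null mouse, with a log2 difference of −0.56 ± 0.15 (limma, adjusted p = 0.0157). Chd3, a chromatin remodeller of the NuRD complex, went the other way, with 39.1, 42.2, 68.0, 63.3 and 42.0 TPM in doxorubicin-treated p53-null mice, against 28.9 to 47.9 TPM (median 34.1) in p21-null mice. p53null_Doxo_2688 and p53null_Doxo_2769 were high and the other three overlapped the p21-null mice. The log2 difference was 0.46 ± 0.15 (limma, adjusted p = 0.0395), and the call was lost without p53null_Doxo_2688 (0.135) or p53null_Doxo_2769 (0.116) and without p21null_Doxo_4093, p21null_Doxo_4132, p21null_Doxo_4439, p21null_Doxo_4533, p21null_Doxo_4534 or p21null_Doxo_4577 (limma, adjusted p between 0.0524 and 0.071).

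Of 12 genes for metabolism and transport, 2 were lower and 1, Atp1b2, was higher, with a median log2 difference of −0.02. Acadvl (ENSMUSG00000018574), the mitochondrial enzyme that starts the oxidation of very long chain fatty acids, had 77.2, 67.5, 81.2, 69.9 and 91.1 TPM in doxorubicin-treated p53-null mice, against 91.4 to 129 TPM (median 112) in p21-null mice. Every p53-null mouse lay below every p21-null mouse, narrowly so for p53null_Doxo_2771. Acadvl differed by −0.52 ± 0.10 (log2), a fold of 0.70 (limma, adjusted p = 0.00125). Acadvl overlaps Dvl2 on the opposite strand, so their unstranded reads are not fully separable. Mpdu1, which helps the cell use dolichol-linked mannose for glycosylation, had 72.9, 56.9, 81.0, 66.7 and 85.8 TPM in doxorubicin-treated p53-null mice, against 78.8 to 115 TPM (median 95.05) in p21-null mice. Its groups overlapped, the log2 difference was −0.39 ± 0.10 (limma, adjusted p = 0.0183), and the call was lost without p53null_Doxo_2551 (0.0542).

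In the proteasome and vesicle traffic groups a single gene each passed. Psmb6, a catalytic subunit of the proteasome core, had 302, 230.3, 294, 298 and 327 TPM in doxorubicin-treated p53-null mice, against 333 to 421 TPM (median 403) in p21-null mice. The groups did not overlap, and the log2 difference was −0.43 ± 0.10 (limma, adjusted p = 0.00968). Trappc1, of the TRAPP complexes that tether transport vesicles, had 96.7, 75.8, 68.6, 79.3 and 91.6 TPM in doxorubicin-treated p53-null mice, against 93.2 to 125 TPM (median 105) in p21-null mice. p53null_Doxo_2237 alone reached into the p21-null range. Trappc1 differed by −0.36 ± 0.09 on the log2 scale (limma, adjusted p = 0.014), and it did not pass without p53null_Doxo_2688 (0.0507).

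Receptors, ligands and adhesion proteins gave 2 higher and 0 lower of 12, with a median log2 difference of 0.23. Nlgn2, an adhesion protein of inhibitory synapses, had 16.1, 13.7, 26.2, 19.1 and 16.7 TPM in doxorubicin-treated p53-null mice, against 8.38 to 13.8 TPM (median 10.8) in p21-null mice. Only p53null_Doxo_2551 lay within the p21-null range, just below its top, and the log2 difference was 0.65 ± 0.14, a fold of 1.57 (limma, adjusted p = 0.00364). Dlg4, the scaffold protein PSD-95 of excitatory synapses, had 6.20, 8.05, 17.5, 12.01 and 7.25 TPM in doxorubicin-treated p53-null mice, against 3.29 to 7.85 TPM (median 4.54) in p21-null mice. p53null_Doxo_2237 and p53null_Doxo_2771 overlapped the p21-null mice. Dlg4 differed by 0.85 ± 0.20 on the log2 scale (limma, adjusted p = 0.00941). Without treatment Dlg4 was at 11.3, 12.3, 11.1 and 8.59 TPM in p53-null mice, against 8.18, 7.54, 7.41, 8.17 and 6.82 TPM in p21-null mice, with no overlap and no call.

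Among the 21 signalling and other genes, 2 were higher and 1 lower. Bcl6b (ENSMUSG00000000317), a zinc finger repressor related to Bcl6, showed the most positive difference among the neighbours, with 3.71, 7.10, 6.40, 3.39 and 3.36 TPM in doxorubicin-treated p53-null mice, against 1.22 to 2.81 TPM (median 1.81) in p21-null mice. The groups did not overlap, and the log2 difference was 0.97 ± 0.20, a fold of 1.96 (limma, adjusted p = 0.00298). Endothelial markers differed beside it: 2 of 4 were higher and none lower in p53-null tumours under doxorubicin, with a summed level of 32.3 to 91.5 TPM (median 68.8) in p53-null mice against 18.9 to 61.6 TPM (median 28.9) in p21-null mice, and none of the 4 was at 0 in every tumour. Over the 23 null mice, after group means were removed, Bcl6b correlated with Arhgef15, a guanine exchange factor known from endothelium, at r = 0.83, mice sharing library and tumour make-up. The part of endothelial cells in the Bcl6b difference was not tested. Markers of other cell types also differed under doxorubicin, beside all the neighbours described here. Of 6 macrophage markers 2 were lower and 0 higher in p53-null tumours, with a summed level of 248 to 1203 TPM in p53-null mice, against 758 to 1778 TPM in p21-null mice. Of 5 basal epithelial markers 1 was lower and 0 higher, at a summed 1395 to 2189 TPM in p53-null mice, against 2079.7 to 4708 TPM in p21-null mice. Of 5 fibroblast markers 1 was higher and 0 lower, at a summed 397 to 2956 TPM in p53-null mice, against 257 to 1504 TPM in p21-null mice. None of these markers was at 0 in every tumour of a group, and their part in the neighbours' differences was not tested.

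Acap1, a GTPase-activating protein for Arf6, had 5.24, 6.18, 3.65, 4.71 and 6.86 TPM in doxorubicin-treated p53-null mice, against 2.06 to 4.87 TPM (median 3.53) in p21-null mice, with overlap. The log2 difference was 0.54 ± 0.16 (limma, adjusted p = 0.0296). It did not pass without p53null_Doxo_2237, p53null_Doxo_2551, p53null_Doxo_2771, p21null_Doxo_4534 or p21null_Doxo_4577 (limma, adjusted p between 0.0506 and 0.0807), nor without the second tumour of p53null_Doxo_2551 (0.205). Gm21988, a predicted gene that overlaps 0610010K14Rik and Rnasek on the same strand, differed by −0.35 ± 0.10 (limma, adjusted p = 0.0294), and its TPM depends on how reads were split among the 3. Its call was lost without p53null_Doxo_2237, p53null_Doxo_2688, p53null_Doxo_2769 or p21null_Doxo_4132 (limma, adjusted p between 0.0531 and 0.0811) or the second tumour of p53null_Doxo_2551 (0.0802).

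**Figure D2:**
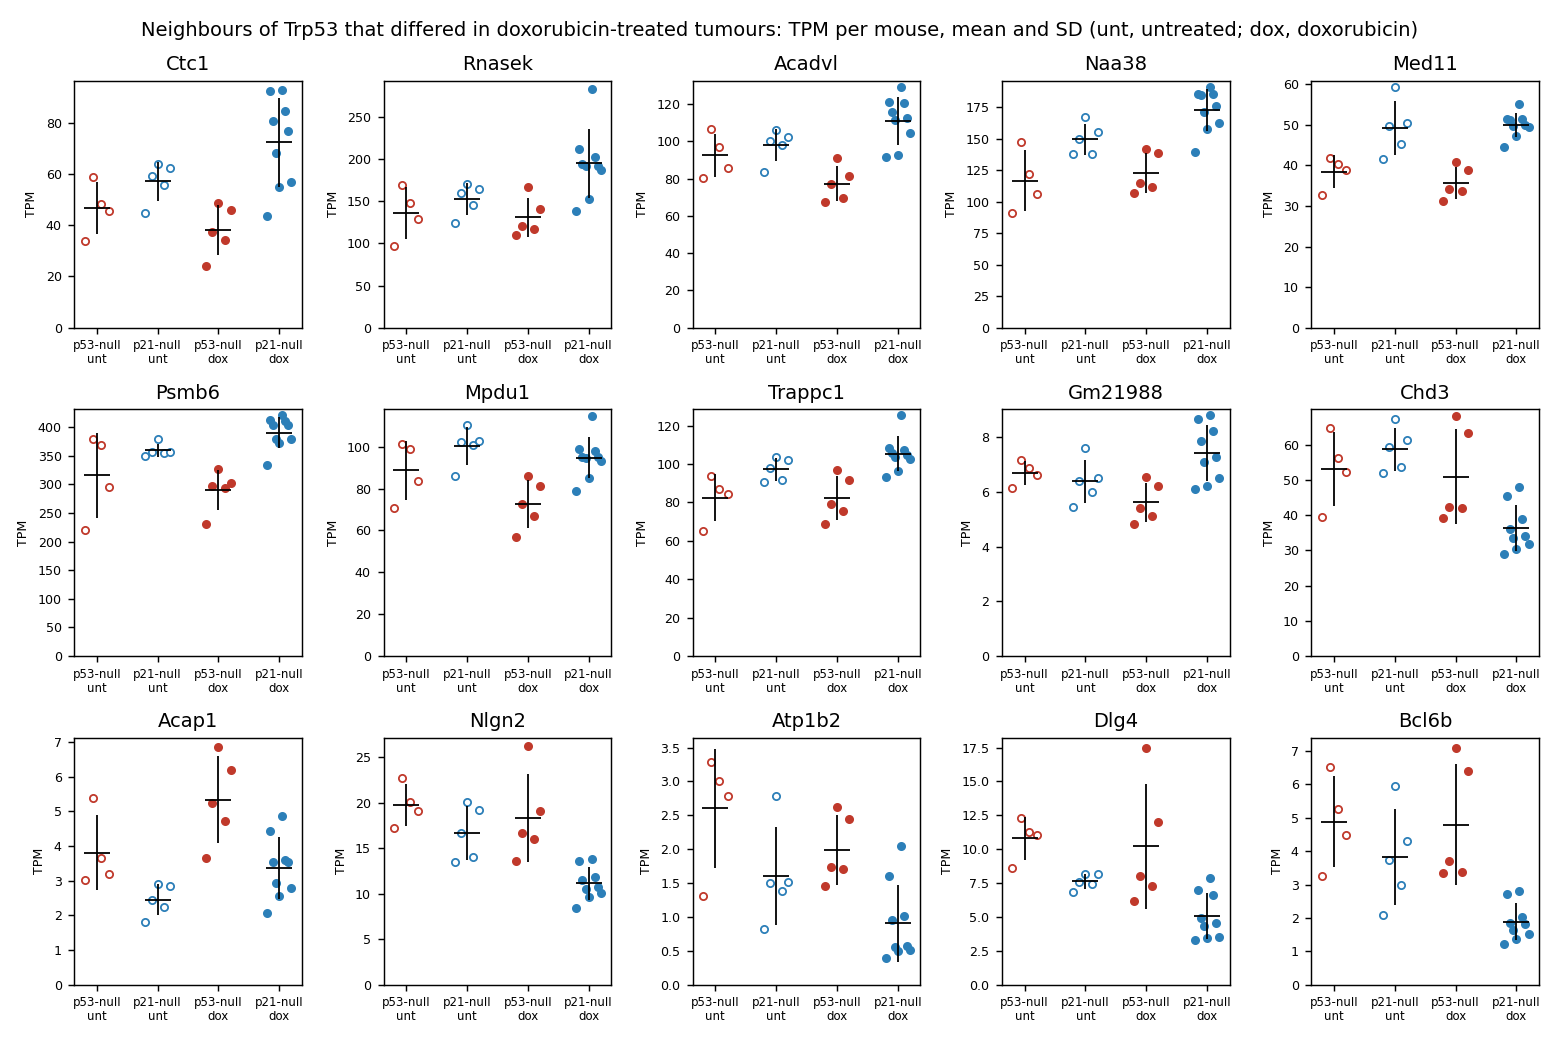
TPM of the 15 neighbours called under doxorubicin, a panel each, with a point for every mouse and the mean and SD of its group, for p53-null and p21-null mice without treatment and under doxorubicin. Acadvl, Med11 and Psmb6 are lower in every p53-null mouse than in every p21-null mouse under doxorubicin, and Bcl6b is higher.

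Non-overlapping groups gave a similar picture. Under doxorubicin the p53-null and p21-null mice did not overlap for 4 of 80 neighbours, which is 5%, against 3.01% of all genes. Acadvl, Med11 and Psmb6 were lower (3.75%, against 1.86%) and Bcl6b higher (1.25%, against 1.15%). Without treatment they did not overlap for 4 others, again 5%, against 7% of all genes. Rpl26 and Slc2a4, a glucose transporter, were lower (2.5%, against 2.97%), and Acap1 and Dlg4 higher (2.5%, against 4.03%). For 0 of 80 were the groups apart in the same direction in both, against 0.811% of all genes. Of the 15 neighbours called under doxorubicin, 13 had the same sign without treatment (86.7%), against 84% of all genes called.

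The highest neighbours by level were translation and autophagy genes, and none passed in either genotype comparison. Rpl26, a protein of the large ribosomal subunit, had 3064, 3896, 3750.1 and 3598 TPM in untreated p53-null mice, against 4056, 4762, 4413, 4689 and 5248 TPM in untreated p21-null mice. Every p53-null mouse was lower, but the log2 difference of −0.37 ± 0.11 did not pass (limma, adjusted p = 0.119), and under doxorubicin it was −0.14 ± 0.10 with overlapping groups. Eif4a1, the helicase that unwinds mRNA for initiation, differed by −0.02 ± 0.12 untreated and −0.08 ± 0.10 under doxorubicin. Eif5a, a factor of translation elongation, differed by 0.19 ± 0.15 and −0.14 ± 0.12, and Gabarap, an autophagosome protein, by 0.10 ± 0.10 and −0.18 ± 0.09. For these last 3 genes all 6 intervals lay within 0.5 of 0.

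Whether the genotype difference itself depended on treatment was tested as an interaction. None of the 80 neighbours passed (limma, smallest adjusted p = 0.369), where 0.571% of all genes were called, and 8 (10%) had an unadjusted p under 0.05, against 9.8% of all genes. Among these 8, the difference under doxorubicin minus that without treatment was 0.67 for Kdm6b, 0.61 for Chd3 and −0.43 for Acadvl. The calls under doxorubicin and their absence without treatment are therefore not shown to differ. When the genotype difference was averaged over both treatments, a contrast added after the data were seen, 18 of 80 passed (22.5%, against 13.8% of all genes), 12 of them lower (15%, against 6.25%) and 6 higher (7.5%, against 7.54%).

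Within the averaged contrast Med11 again had the smallest adjusted p, with −0.41 ± 0.07 (limma, adjusted p = 0.000308). Polr2a, the large subunit of RNA polymerase II, which just missed the threshold under doxorubicin with 0.47 ± 0.16 (limma, adjusted p = 0.0501), was higher at 0.43 ± 0.12 (limma, adjusted p = 0.0246). Rpl26 was lower at −0.26 ± 0.07 (limma, adjusted p = 0.024), as were Slc16a11, a monocarboxylate carrier (−0.83), Tmem102 (−0.57) and Cldn7, a tight junction protein (−0.49). Without the 3 p53-null mice left out above, the averaged count was 10 of 80 (12.5%, against 11.6% of all genes).

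Distance from Trp53 did not order the calls. Under doxorubicin 5 of 25 neighbours within 0.25 Mb were called (20%), 4 of 25 between 0.25 and 0.5 Mb (16%) and 6 of 30 between 0.5 and 1 Mb (20%). The shares were 4 of 24 (16.7%) at lower coordinates and 11 of 56 (19.6%) at higher coordinates. Farther along chromosome 11, 3 of 69 protein-coding genes were called between 1 and 5 Mb (4.35%), 19 of 151 between 5 and 10 Mb (12.6%), and 138 of 1103 over the whole chromosome outside the neighbours (12.5%), against 1951 of 12981 on other chromosomes (15%). Without treatment 0 were called in each bin of neighbours and up to 10 Mb, and 9 of 1103 (0.816%) over the rest of chromosome 11, against 139 of 12981 (1.07%) on other chromosomes. These 1103 genes include Trp53 itself and Cd68, Aurkb and Cxcl16, which were set aside from the neighbours. Over the 80 neighbours, Spearman's rho between distance and the size of the difference was 0.15 untreated and 0.07 under doxorubicin, across genes that share the same mice. Around Cdkn1a, the gene targeted in the mice compared with, 7 of 33 protein-coding genes within 1 Mb were called under doxorubicin (21.2%) and 2 of 33 without treatment (6.06%), Scube3 and Rab44. Within 3 Mb of Cdkn1a 18 of 83 were called under doxorubicin (21.7%) and 6 of 83 without treatment (7.23%). Over all genes tested the shares were 14.5% and 1.2%.

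Transcript length moved with the doxorubicin difference. Across the 80 neighbours, log2 length of the longest transcript and the difference correlated at r = 0.46 under doxorubicin and 0.12 untreated, and over 14164 protein-coding genes at 0.32 and 0.03. Of 23 neighbours under 1500 bases, among them Med11, Naa38, Psmb6 and Trappc1, 6 were lower and 0 higher. Of 28 neighbours of 3000 bases or more, among them Nlgn2, Dlg4, Bcl6b and Chd3, 5 were higher and 1, Ctc1, was lower. Over all protein-coding genes 279 were lower and 59 higher of 1895 under 1500 bases, and 240 lower and 1006 higher of 7896 at 3000 or more. The part of transcript length, and of the mitochondrial share given above, in the neighbours' differences was not tested.

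**Figure D3:**
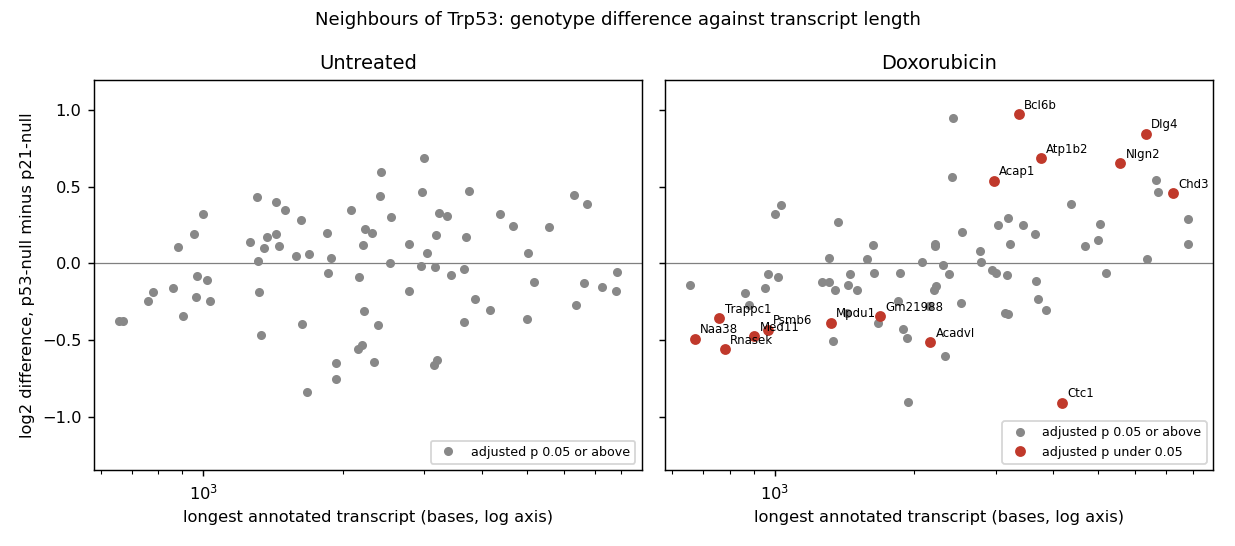
Log2 difference of each neighbour, p53-null minus p21-null (vertical axis), against the length of its longest annotated transcript in bases on a log axis (horizontal axis), without treatment and under doxorubicin. Under doxorubicin the 6 called neighbours under 1500 bases lie below 0, and 5 of the 6 called neighbours of 3000 bases or more lie above 0.

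The neighbours were also summarised over the region. For each mouse, the median over the 80 neighbours of the log2 deviation from the p21-null mean of the same treatment was −0.18 to 0.05 in doxorubicin-treated p53-null mice and −0.11 to 0.02 in untreated p53-null mice, against −0.11 to 0.11 in doxorubicin-treated and −0.14 to 0.09 in untreated p21-null mice. These ranges overlap. Set beside the median over all genes tested in the same mouse, the neighbours' median was lower in 5 of 5 doxorubicin-treated and 4 of 4 untreated p53-null mice, against 3 of 9 doxorubicin-treated and 2 of 5 untreated p21-null mice. The gap was narrow in p53null_Untreated_881, at −0.11 for the neighbours and −0.10 for all genes, and wider in p53null_Doxo_2551, at −0.18 and 0.03. In p53null_Doxo_2551 the rest of chromosome 11 was as low as the neighbours, at −0.19, and in p53null_Untreated_881 it was lower, at −0.45. It also lay below the neighbours in p53null_Untreated_1556, at −0.04 and −0.02. In all other p53-null mice of either treatment the rest of the chromosome lay above the neighbours. Because deviations are taken from the p21-null mean, p21-null mice are centred near 0 by construction, while p53-null mice carry any genotype difference. The counts of the 2 genotypes are therefore not alike and test no shift of the region. No such count was made for another set of genes. After group means were removed, neighbours next to each other correlated over the 23 mice with a median r of 0.15 (79 pairs), against 0.08 over all 3160 pairs. The tightest pair, Myh10, a nonmuscle myosin heavy chain, and Pfas, an enzyme of purine synthesis, reached 0.89, and Tnfsfm13 and Tnfsf12, whose gene models overlap on the same strand, reached 0.88.

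**Figure D4:**
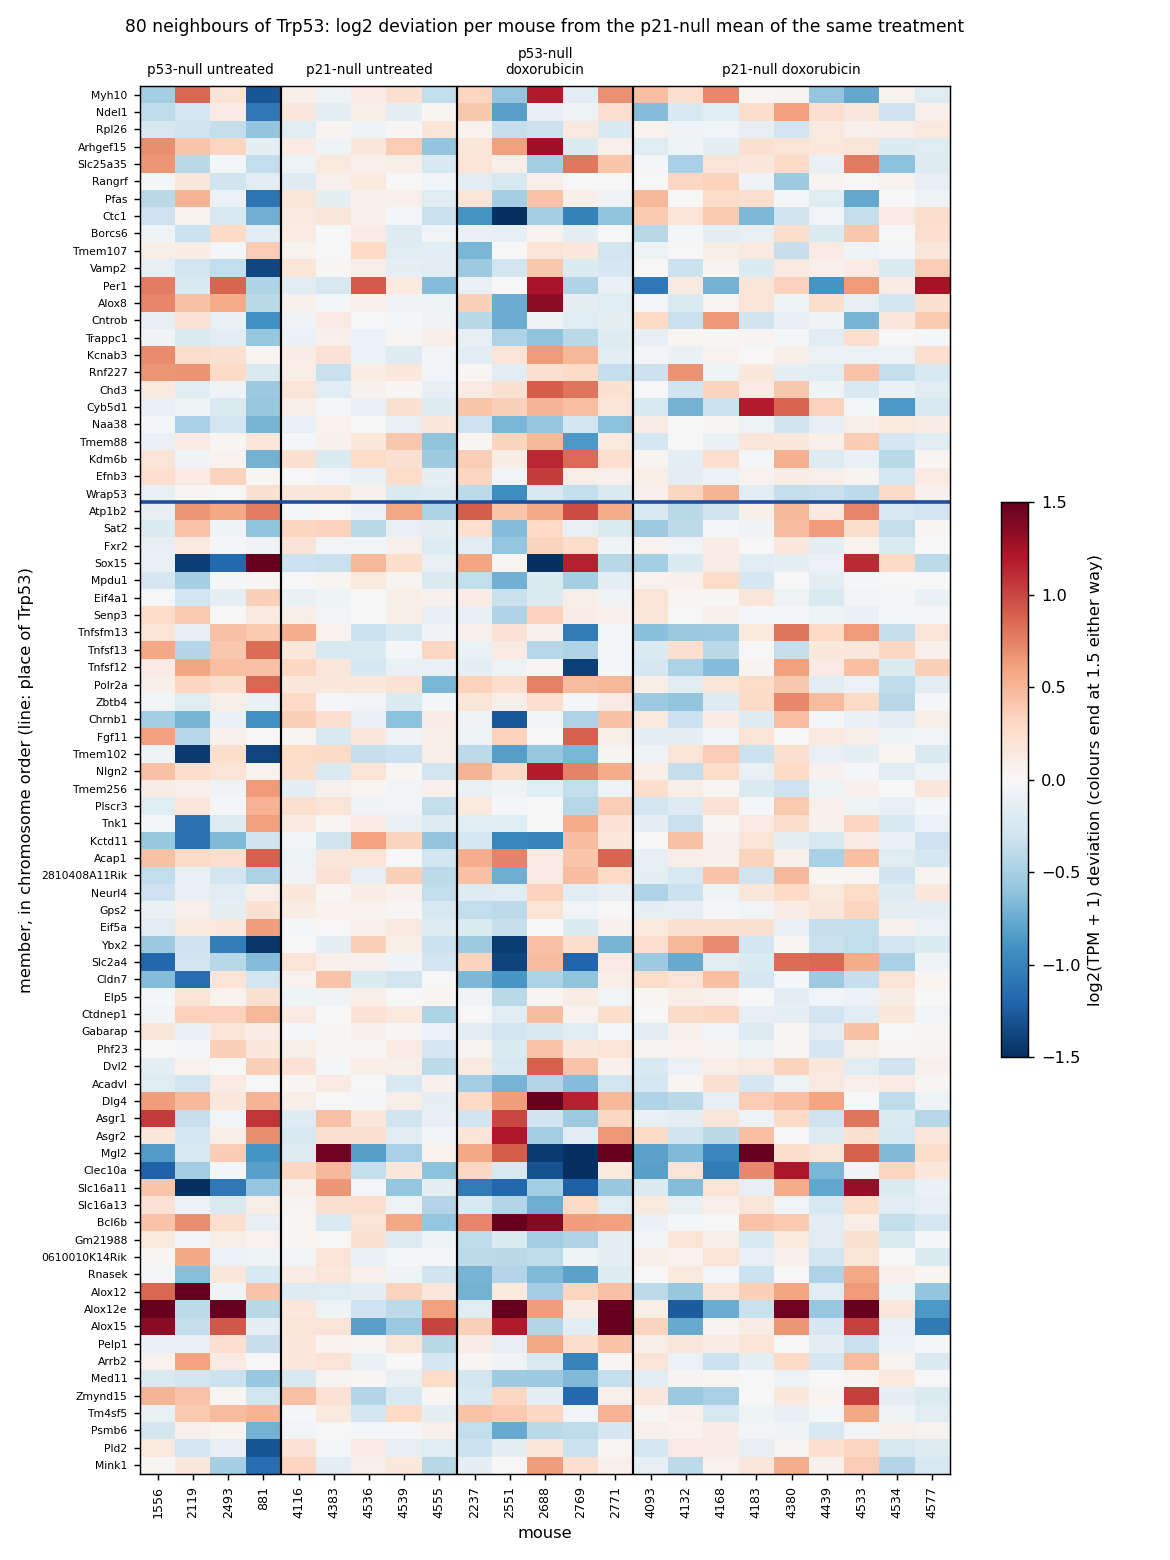
Log2 deviation of the 80 neighbours (one axis, in chromosome order) in the 23 null mice (the other axis, by group) from the mean of the p21-null mice of the same treatment, with colours ending at −1.5 and 1.5. Each mouse has neighbours on both sides of 0, and the median per mouse stays between −0.18 and 0.11.

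Larger stretches of the chromosome did shift in single p53-null tumours, in some away from the neighbours and in others with the neighbours included. Here each tumour's deviations are relative to the median of its own protein-coding genes, which was not subtracted from the medians per mouse above. p53null_Untreated_881 had medians of −0.57, −0.39 and −0.45 in the 10 Mb segments between 40 and 10 Mb below Trp53 and 0.42 between 50 and 40 Mb below. Above Trp53 it stood at −0.24 between 1 and 10 Mb and at −0.38 to −0.46 from there to the end, with its 80 neighbours at −0.01. p53null_Doxo_2769 stood at 0.38 to 0.81 over the segments from 70 to 10 Mb below Trp53, with its neighbours at −0.08. p53null_Doxo_2551rc, the second tumour of its mouse, was low along the chromosome, at −0.25 to −0.39, and lower still in the neighbours, at −0.51. p53null_Untreated_1556 was also low along the chromosome, at −0.05 to −0.32, with its neighbours at −0.19. The second tumour of that mouse, p53null_Untreated_1556i, stood at −0.03 to 0.10, with its neighbours at 0.09. Over the p21-null tumours, which are themselves the baseline, the neighbours' median stayed between −0.03 and 0.03 untreated and between −0.17 and 0.17 under doxorubicin. Over the p53-null tumours it ran from −0.19 to 0.09 untreated and from −0.51 to 0.002 under doxorubicin. DNA copy number was not measured here, and what underlies these stretches was not tested.

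**Figure D5:**
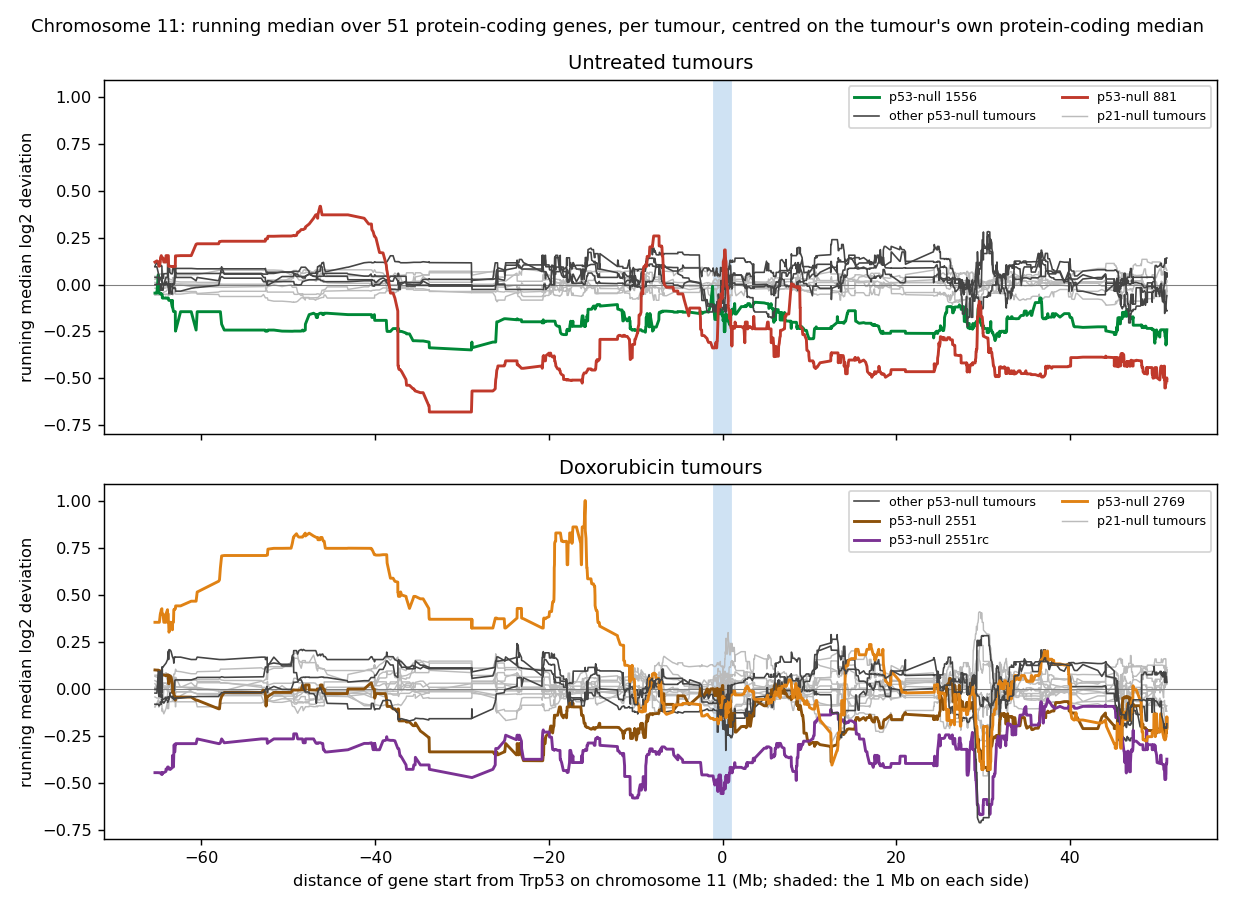
Running median over 51 protein-coding genes of the log2 deviation from the p21-null mean of the same treatment, less the median of the tumour's own protein-coding genes (vertical axis), against distance from Trp53 in Mb along chromosome 11 (horizontal axis), a line per tumour, untreated and under doxorubicin. p53null_Untreated_881, p53null_Untreated_1556, the tumours of p53null_Doxo_2551 and p53null_Doxo_2769 leave the band in which the p21-null tumours lie. For p53null_Untreated_881 and p53null_Doxo_2769 this is mainly outside the neighbours.

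Treated and untreated mice were also compared within each genotype. In p53-null tumours 0 of 80 passed between treated and untreated mice (limma, smallest adjusted p = 0.0851, for Tmem256), where 0.973% of all genes were called, and 15 (18.8%) had an unadjusted p under 0.05, against 11.7% of all genes. Leaving out p53null_Untreated_2119 or p21null_Doxo_4380 gave 1 call, and p53null_Untreated_2493 or p53null_Doxo_2688 gave 2. The share of all genes called is not given beside these counts, so they show nothing particular to the neighbours. In p21-null tumours 5 of 80 passed, all lower under doxorubicin (6.25%, against 5.65% of all genes called in either direction and 2.04% called lower). In wild-type tumours 0 of 80 passed (limma, smallest adjusted p = 0.139, for Eif4a1 at −0.39 ± 0.12), where 1.08% of all genes were called, and 5 (6.25%) had an unadjusted p under 0.05, against 7.59%. Protein-coding genes held a small share of TPM in those libraries, so log2(TPM + 1) understates their changes there. On TPM rescaled to protein-coding genes 2 of 80 passed (2.5%, against 4.32% of all genes), and with median-of-ratios scaling 0 did, against 4.2%. The wild-type count is therefore not like those of the null groups.

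The 5 that fell in p21-null tumours were Chd3, Rangrf, Nlgn2, Dvl2 and Bcl6b, and 3 of these are also among the 6 that were higher in p53-null tumours under doxorubicin, a comparison that shares the treated p21-null mice. Chd3 averaged 36.3 ± 6.58 TPM in treated and 58.6 ± 6.14 TPM in untreated p21-null mice (SD, n = 9 and 5), with a log2 difference of −0.69 ± 0.15 by limma (adjusted p = 0.00516). Rangrf, a nucleotide release factor for the GTPase Ran, averaged 49.7 ± 8.62 and 70.6 ± 6.26 TPM (limma, −0.51 ± 0.11, adjusted p = 0.00774). Rangrf shares 1882 bp with Slc25a35 on the opposite strand, and their unstranded reads are not fully separable. Nlgn2 averaged 11.1 ± 1.77 and 16.7 ± 2.95 TPM in treated and untreated p21-null mice (limma, −0.54 ± 0.14, adjusted p = 0.0196). Dvl2, a transducer of Wnt signals, averaged 11.9 ± 1.88 and 18.0 ± 2.87 TPM (limma, −0.55 ± 0.15, adjusted p = 0.0355), and Bcl6b 1.88 ± 0.56 and 3.82 ± 1.45 TPM (limma, −0.71 ± 0.20, adjusted p = 0.0366). In p53-null mice the same genes stood at 50.9 and 53.1 TPM for Chd3, 46.9 and 67.0 TPM for Rangrf, 18.4 and 19.8 TPM for Nlgn2, 14.9 and 18.9 TPM for Dvl2, and 4.79 and 4.89 TPM for Bcl6b, treated and then untreated, and none passed. The difference of the 2 responses is the interaction given above, which none of these genes passed. The p21-null count was 2 without p21null_Untreated_4116, p21null_Untreated_4536 or p21null_Untreated_4539 and 3 without p21null_Doxo_4093, p21null_Doxo_4132, p21null_Doxo_4534 or p21null_Doxo_4577. Here too the share of all genes is not given, so whether the loss is particular to the neighbours is not shown.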

How the data were processed

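Gene-level RNA-seq values of 40 tumours were analysed. The authors deposited TPM per gene, a length-corrected abundance, made with RSEM per the submitters' processing notes, on mm10 with Ensembl release 79 gene models per the file names. Neither the RSEM version nor the aligner is stated in those notes or labels. RNA came from snap-frozen, pulverised tumour, per the labels' protocols. No counts are in the TPM tables, so read depth is unknown, and no count model was fitted. Each table held 43346 genes, its TPM summed to between 999998.9 and 1000001.1, and no 2 tables were identical. Of the gene IDs, 42462 matched GENCODE M21 (GRCm38), which gave positions, strands and transcript lengths, and 884 did not.

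TPM were transformed to log2(TPM + 1), which understates changes of low genes, and averaged over tumours of 1 mouse. Genes with at least 1 TPM in 4 tumours were kept (16650). A linear model over the 4 null groups (23 mice, 19 residual degrees of freedom) was fitted with limma 3.58.1 in R 4.3.3 with statmod 1.5.0, with a trended and robust variance prior, Benjamini-Hochberg adjustment over all genes tested and a threshold of 0.05. The wild-type response came from the same model over all 6 groups (28 residual degrees of freedom). The code was tested on simulated data.

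Named genes were those called in a genotype comparison, the 5 nearest on each side and the 4 with the highest mean TPM. Polr2a, the interaction examples, the genes of the averaged contrast and of the p21-null response, and Ybx2, Alox12, Slc2a4, Myh10, Pfas, Tnfsf12, Tnfsfm13 and Arhgef15 were named after their values were seen. The neighbours, gene lists and tests were chosen with earlier results of these data known. Alternatives covered scaling, pseudocount, filter, tumours as samples, variance model, samples fitted, the definition of gene start, and leaving out each mouse; 2 that leave out p53-null tumours with shifted stretches of chromosome 11, and the averaged contrast, were added after the data were seen.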

Additional observations from a re-analysis of the deposited data

Results flagged for a closer look

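In 6 of 120 groups, 1 mouse lay farther from the others of its group than Dixon's 95% critical value allows, and chance alone gives about 1 in 20 groups. The groups were those of the named genes, Trp53 and Cdkn1a, and those of the medians per mouse over the neighbours and over the rest of chromosome 11. All 6 flags fell on genes. Wrap53 stood at 7.48 TPM in p53null_Doxo_2551, where the other mice of that group had 11.3 to 12.9 TPM. In p21null_Doxo_4533, Sox15 was at 21.45 TPM, against 6.24 to 11.5 TPM in the other mice of that group. Gabarap in the same mouse was at 570.5 TPM, against 367 to 440.2 TPM, and Trp53 at 57.7 TPM, against 79.1 to 97.5 TPM. In p21null_Untreated_4555, Psmb6 was at 380.02 TPM, against 349.6 to 357 TPM in the others, and Trp53 at 80.1 TPM, against 102 to 109 TPM.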

How the results depend on the processing

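In the untreated and doxorubicin genotype comparisons, no called value of the 27 named genes, Trp53 among them, changed sign under any alternative run. No neighbour passed the untreated genotype comparison except with all 6 groups fitted, where 1 did (Rpl26, limma, adjusted p = 0.0424). That is 1.25%, against 3.06% of all genes. The doxorubicin genotype count was 12 to 18 with each mouse left out and 20 with all 6 groups fitted (25%, against 22.1% of all genes). It was 12 without the second tumour of p53null_Doxo_2551 (15%, against 10.9%) and 8 without p53null_Untreated_881, p53null_Doxo_2551 and p53null_Doxo_2769 (10%, against 8.94%). The averaged contrast gave 14 to 20 with each mouse left out and 23 with all 6 groups fitted (28.75%, against 20.9%). Without those 3 mice it gave 10 (12.5%, against 11.6%). The interaction count was 0 in each. The p53-null response gave 0 to 2 with each mouse left out and 3 with all 6 groups fitted (3.75%, against 2.02% of all genes). The p21-null response gave 2 to 7 with each mouse left out, and 3 without the filter on low values (3.75%, against 2.3% of all genes). It gave 8 with all 6 groups fitted (10%, against 9.18%) and 8 without the 3 mice (10%, against 7.5%). The wild-type response gave 0 with each mouse left out and 2 on TPM rescaled to protein-coding genes (2.5%, against 4.32% of all genes). The share of all genes thus moved with the setting, and counts with each mouse left out are given without it. Of the 15 neighbours called under doxorubicin, 8 (Acadvl, Bcl6b, Ctc1, Dlg4, Med11, Naa38, Nlgn2 and Psmb6) passed in all 36 alternatives and 7 were lost in 1 or more. The cause of these shifts was not tested. Where a mouse left out leaves small groups, the spread is shared over all groups fitted. No paired analysis was possible because mouse numbers are not shared between groups. Read depth is unknown, so the precision of low genes such as Atp1b2, Efnb3 and Bcl6b cannot be stated beyond the spread between mice.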
